A study of Mus musculus with 8 samples.

Results

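Inducible mucosal defense genes were followed in Paneth cells (PCs), the granule-rich secretory cells at the base of the small intestinal crypts. The members were 10 genes chosen by name: Lcn2, Saa1, Saa3, Nos2, Duox2, Duoxa2, Pigr, Il18, Ido1 and C3. They are 10 of the 55414 genes in the count table, and 7 of them were among the 10707 genes with enough counts to be tested. The 3 that were not tested, Saa1, Saa3 and Il18, are given by their counts.

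Polyadenylated RNA was sequenced in 8 libraries of sorted PCs. The labels give 4 libraries as Milli-Q water, which is ultrapure water, and 4 as zinc, with 25 mM ZnSO4 in the drinking water, in both cases for 7 days. By the labels, all mice of both groups then received TNF (tumor necrosis factor, a cytokine of inflammation) 3 hours before their PCs were collected, so there is no group without TNF. The study's methods name C57BL/6J mice for its sorted PCs, and none of the sources used here gives their age. The comparison asks how zinc in the drinking water goes with the level of these genes under TNF. It cannot show which of them TNF itself had induced.

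These genes belong to the second line of epithelial defense. Whereas PCs make defensins and lysozyme constantly, genes such as Lcn2, Nos2 and Duox2 are known to be kept low in a quiet epithelium and to be switched on by microbes and by cytokines, including TNF, interleukin-17 (IL-17), interleukin-22 (IL-22) and interferon-gamma. Transcription factors known to act on them include NF-kB, C/EBP proteins and STAT proteins. Their products withhold iron, make reactive oxygen and nitric oxide, carry IgA into the lumen, use up tryptophan, or tag microbes for uptake.

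The libraries held 10623658 to 15101627 counts, and levels are given in CPM, for which counts were scaled by the TMM method to make libraries of unequal size comparable. Where a gene had 0 counts, a level of up to 3 counts is allowed, which is 0.179 to 0.369 CPM depending on the library. These limits, and the intervals given for low counts, cover counting error only. PC markers were present in every library: the 12 markers summed to 394000 to 739000 CPM. Of 21 leukocyte markers 12 were detected, with no counts for, among others, Cd3g, Cd8a, Adgre1, Itgax, Ly6g, S100a8, Mpo and Elane. Their sum was 48.1 to 102 CPM with water. It was 38.2 to 42.3 CPM in zinc replicates 1, 2 and 4 and 32.5 CPM in zinc replicate 3. Each zinc library was thus below every water library in this sum, which held for 0 of the 7 tested members and for 3.12% of all tested genes. Most of the sum was Cd74 and Lyz2. Cd74 was at 24.2 to 65.5 CPM with water and 13.2 to 21.5 CPM with zinc, and Lyz2 at 13.3 to 26.1 and 13.1 to 27.4 CPM. Ptprc, Cd68 and Csf1r, also among the leukocyte markers, held 2, 14 and 6 counts over the 8 libraries. The part of these markers in the results was not tested. Stromal markers summed to 0.491 to 3.23 CPM, with 3 of 7 detected and no counts for Col1a1, Col1a2, Col3a1 and Dcn. Goblet cell markers (10 of 10 detected) summed to 10600 to 15800 CPM, crypt stem cell markers (8 of 8) to 425 to 1080 CPM, and enteroendocrine and tuft cell markers (8 of 8) to 16.8 to 32.8 CPM.

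Zinc replicate 3 stood apart from the other 7 libraries, and the comparisons of the members are therefore given with and without it. Over 23 genes of the TNF and NF-kB response, zinc replicate 3 had a mean log2 CPM of 1.36, where the other 7 libraries had 4.85 to 5.40. With no group without TNF, whether the mouse of this library received TNF as labelled cannot be told from the counts, and it was not tested. Every zinc value over 4 libraries includes zinc replicate 3. Enterocyte markers (14 of 14 detected) summed to 602 CPM in this library against 114 to 140 CPM with water and 95.5 to 200 CPM in the other 3 zinc libraries. The sum of its PC markers, 472000 CPM, lay within the range of the others. Most crypt stem cell markers and some goblet cell markers were highest in this library, although their sums were not. Fcgbp was at 1270 CPM (59.8 to 318 CPM in the others). Lgr5 was at 52.3 CPM (7.02 to 22.6), Axin2 at 47.9 (4.4 to 22.9) and Rnf43 at 54.0 (10.6 to 22.6). Of the stem cell markers, only Olfm4 at 482 CPM (113 to 639) and Tnfrsf19 at 2.53 (1.11 to 4.5) lay within the range. Other goblet cell markers lay within the range, among them Muc2 at 2640 CPM (1950 to 9290). Mt1, a metallothionein gene known to be induced by zinc, was at 29.5 CPM in zinc replicate 3, below the 36.0 to 68.2 CPM of the water libraries. In the other zinc libraries Mt1 was at 254, 107 and 45.0 CPM in replicates 1, 2 and 4. The part of these differences in the results was not tested, and in bulk samples fewer cells of a type and less RNA per cell cannot be told apart.

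The members spanned a wide range of levels. Per kilobase of the longest transcript, the median level in the 7 libraries other than zinc replicate 3 was highest for Pigr at 580 CPM per kb, with a range of 468 to 741. Duox2, Nos2 and Duoxa2 followed with medians of 111, 103 and 96.8 CPM per kb. The ranges of these 3 genes, 81.0 to 172, 37.3 to 213 and 44.6 to 205 CPM per kb, overlapped, so their order is not set by these data. Lcn2 had 7.51 CPM per kb (1.43 to 17.6) and Ido1 4.18 (4.01 to 5.30), again with overlapping ranges. C3 had a median of 0.381 CPM per kb, and Saa3, Saa1 and Il18 had 0.108, 0.0659 and 0.0419. Together the 10 genes held 0.256% to 0.549% of the counts in the 7 libraries and 0.0973% in zinc replicate 3. Pigr alone made up 56.4% to 71.2% of these counts in the 7 libraries and 97.4% in zinc replicate 3.

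**Figure D1:**
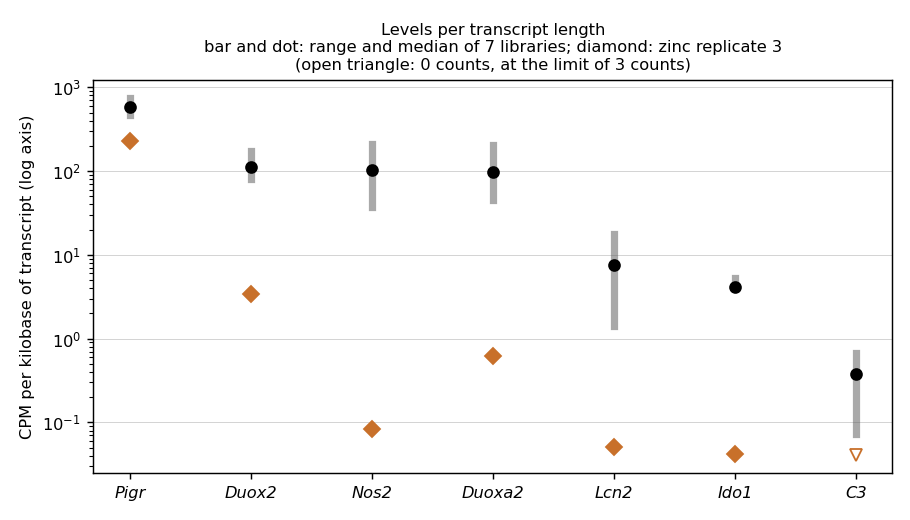
Level per kilobase of the longest transcript (CPM per kb, log axis) for the 7 tested genes, with the range (bar) and median (dot) of 7 libraries and the level in zinc replicate 3 (diamond; for C3, which had 0 counts there, an open triangle at the limit of 3 counts). The medians run from 580 CPM per kb for Pigr to 0.381 for C3, and zinc replicate 3 lies below the bar of every gene shown.

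Duox2 encodes a dual oxidase that releases hydrogen peroxide at the apical surface, and Duoxa2 encodes the maturation factor that Duox2 needs to leave the endoplasmic reticulum. The genes lie head to head on chromosome 2 of GRCm39, Duox2 (ENSMUSG00000068452) at chr2:122109728-122128930 on the minus strand and Duoxa2 (ENSMUSG00000027225) at chr2:122129380-122133366 on the plus strand, with 450 bases between the annotated starts. The sequence before each start is shown because the genes were compared as a pair. It is taken from the RefSeq promoter table (build GRCm38.p6), 250 bases before the start, written 5′ to 3′ on the gene's strand. The RefSeq starts of the pair lie further apart than those of GENCODE, so the printed stretches belong to the RefSeq starts and not to the ones above.
Duox2 upstream stretch, chr2:122298228-122298477, minus strand: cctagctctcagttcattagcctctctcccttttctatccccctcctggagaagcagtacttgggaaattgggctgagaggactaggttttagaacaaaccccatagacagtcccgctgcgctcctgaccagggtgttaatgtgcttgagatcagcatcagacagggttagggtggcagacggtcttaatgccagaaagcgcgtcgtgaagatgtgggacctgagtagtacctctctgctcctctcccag
Duoxa2 upstream stretch, chr2:122298650-122298899, plus strand: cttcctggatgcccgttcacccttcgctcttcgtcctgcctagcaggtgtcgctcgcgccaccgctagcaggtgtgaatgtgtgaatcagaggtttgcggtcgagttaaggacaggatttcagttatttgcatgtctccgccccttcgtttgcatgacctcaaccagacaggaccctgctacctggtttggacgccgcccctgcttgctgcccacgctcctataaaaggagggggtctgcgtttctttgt

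Neither the Duox2 nor the Duoxa2 window held a match to any of the 4 patterns searched on both strands. These were a kB-like pattern (GGGNNNNNCC), an ISRE-like pattern (GAAANNGAAA), a GAS-like pattern (TTCNNNGAA) and a C/EBP-like pattern (TTGCNNAA), searched from 250 bases before to 50 bases after the start. No match says only that these letters are not in this window.

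Duox2 was at 1050, 827, 680 and 591 CPM in Milli-Q water replicates 1 to 4 and at 495, 680, 20.8 and 997 CPM in zinc replicates 1 to 4. The groups overlapped, and zinc replicate 4 was the second highest of the 8 libraries. The group means were 788 ± 202 and 548 ± 408 CPM (SD, n = 4 each). The log2 fold change, zinc over water, was -0.52 (SE 0.738, 95% interval -2.16 to 1.11, edgeR adjusted p = 0.778). Without zinc replicate 3 it was -0.12 (interval -0.62 to 0.39, adjusted p = 0.911), and the zinc mean was 724 ± 254 CPM (SD, n = 3).

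Duoxa2 was at 238, 131, 326 and 154 CPM with water and at 71.0, 113, 0.982 and 171 CPM with zinc. In 3 of the 4 zinc libraries it was below the lowest water library, while zinc replicate 4 lay inside the water range. The means were 212 ± 88.6 and 88.9 ± 71.4 CPM (SD, n = 4 each), and the log2 fold change was -1.26 (SE 0.883, interval -3.21 to 0.70, adjusted p = 0.577). Without zinc replicate 3 the zinc mean was 118 ± 50 CPM (SD, n = 3). The log2 fold change was then -0.84 (interval -1.52 to -0.16), with an unadjusted p of 0.0199 that became 0.575 by edgeR after adjustment over all genes.

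The oxidase and its partner did not keep a fixed ratio. Per kilobase, Duoxa2 over Duox2 was 0.865, 0.609, 1.84 and 1.00 in the water libraries and 0.550, 0.638 and 0.656 in zinc replicates 1, 2 and 4. In zinc replicate 3 the ratio was 0.181. Duoxa2 was further below the other libraries there than Duox2 was: the median of the other zinc libraries was 115 times the level in zinc replicate 3 for Duoxa2 (95% counting interval 68.5 to 210) and 32.6 times for Duox2 (29.1 to 36.7). Duoxa2 overlaps Duoxa1 on the other strand, but Duoxa1 held only 90 counts over the 8 libraries, against 14724 for Duoxa2. Whether strand was used in counting is not stated in the labels or methods.

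Nos2 (ENSMUSG00000020826, chr11:78811613-78851080, plus strand, GRCm39) encodes inducible nitric oxide synthase, which makes nitric oxide from arginine. It has no entry in the promoter table. It was at 892, 498, 432 and 256 CPM with water and at 156, 263, 0.351 and 433 CPM with zinc. The highest and the lowest water library differed more than the group means did, and the groups overlapped. In zinc replicate 3 the Nos2 level rested on 5 counts (0.114 to 0.819 CPM, exact 95% Poisson interval), although this library was as deep as the others. The median of the other zinc libraries was 749 times higher (321 to 2310). For Lcn2 and Ido1, with 1 count each in zinc replicate 3, the same ratio was 96.1 (17.2 to 3790) and 98.8 (17.7 to 3900), so the order of these 3 genes is not set.

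Mean Nos2 was 520 ± 269 CPM in the water group against 213 ± 182 CPM in the zinc group (SD, n = 4 each). This gave a log2 fold change of -1.29 (SE 1.06, interval -3.64 to 1.07, adjusted p = 0.62, edgeR). Without zinc replicate 3 the zinc mean was 284 ± 140 CPM (SD, n = 3) and the log2 fold change -0.86 (interval -1.67 to -0.06), with an unadjusted p of 0.0382 and an adjusted p of 0.599. Against the other reactive-species enzyme, Nos2 over Duox2 per kilobase was 1.23, 0.877, 0.927 and 0.631 with water, 0.461, 0.564 and 0.634 in zinc replicates 1, 2 and 4, and 0.0245 in zinc replicate 3. Thus zinc replicates 1 and 2 had lower ratios than every water library, and zinc replicate 4 was level with the lowest of them.

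**Figure D2:**
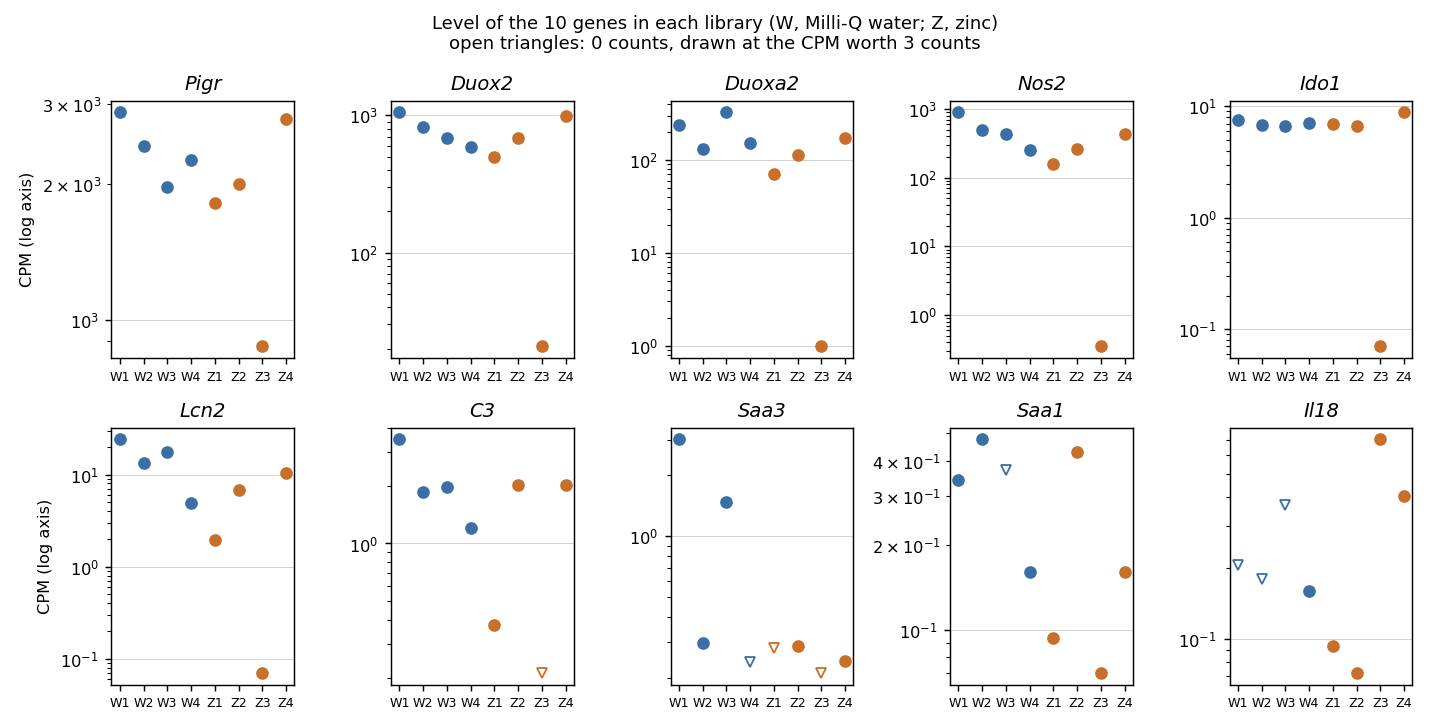
Level of each of the 10 genes in each library (CPM, log axis, scaled separately for each gene), with Milli-Q water libraries in blue (W1 to W4), zinc libraries in orange (Z1 to Z4) and libraries with 0 counts as open triangles at the CPM worth 3 counts. Nos2 runs from 256 to 892 CPM with water and is at 0.351 CPM in Z3, whereas Ido1 stays between 6.65 and 8.79 CPM in the 7 libraries other than Z3.

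Lcn2 encodes lipocalin-2, a secreted protein that binds bacterial siderophores and so withholds iron. The gene (ENSMUSG00000026822) lies at chr2:32274645-32278264 on the minus strand (GRCm39). The 250 bases before its start and those of C3 and Pigr, shown further on, are printed because they hold the kB-like matches of the tested genes. Capitals mark these matches, on either strand, and the rest is in lower case (RefSeq, GRCm38.p6).
Lcn2 upstream stretch, chr2:32387740-32387989, minus strand: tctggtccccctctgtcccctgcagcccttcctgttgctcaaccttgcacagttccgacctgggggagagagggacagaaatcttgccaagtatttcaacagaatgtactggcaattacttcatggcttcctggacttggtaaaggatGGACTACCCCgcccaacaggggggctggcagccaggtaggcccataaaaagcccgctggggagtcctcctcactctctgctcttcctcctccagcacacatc

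The Lcn2 window held a kB-like match on the minus strand, written GGACTACCCC on the printed strand, that begins 102 bases before the start, and a C/EBP-like match 216 bases before it. Lcn2 was at 24.1, 13.3, 17.7 and 4.88 CPM with water and at 1.97, 6.74, 0.0702 and 10.3 CPM with zinc. All 4 zinc values were below the median of the water libraries, but zinc replicates 2 and 4 were above Milli-Q water replicate 4. The count in zinc replicate 3 was 1, against 61 to 353 in the water libraries.

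The water group had a mean Lcn2 level of 15 ± 8.09 CPM and the zinc group a mean of 4.78 ± 4.64 CPM (SD, n = 4 each), or 6.34 ± 4.19 CPM without zinc replicate 3 (SD, n = 3). Its log2 fold change of -1.65 (SE 0.794, interval -3.41 to 0.11) was the lowest of the tested members, with an edgeR unadjusted p of 0.0634 and an adjusted p of 0.49. Without zinc replicate 3 it was -1.21 (interval -2.28 to -0.15), with an unadjusted p of 0.0283 and an adjusted p of 0.588. Lcn2 was also the most variable tested member among the 7 other libraries: its highest level was 12.3 times its lowest. For 7661 genes with a mean of at least 5 CPM, the median of this ratio was 1.53, and 99.9% of them had a smaller ratio than Lcn2.

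The serum amyloid A genes Saa1 and Saa3 encode acute phase proteins that bind lipids and retinol. Both were close to undetected. Saa3 (ENSMUSG00000040026, chr7:46361422-46365576, minus strand) had 68 counts in all, and 44 of them were in Milli-Q water replicate 1. Its level was 3.01, 0.298, 1.48 and 0 CPM with water and 0, 0.287, 0 and 0.242 CPM with zinc, so the counts that there were came mostly from a pair of water libraries. Saa1 (ENSMUSG00000074115, chr7:46389916-46392547, minus strand) had 25 counts, at 0.342, 0.476, 0 and 0.16 CPM with water and 0.0937, 0.43, 0.0702 and 0.161 CPM with zinc. The Saa1 values showed no separation of the groups, and since Saa1 and Saa2 are near-identical copies, its few counts are uncertain. The Saa1 promoter window held a kB-like match at -78 and a C/EBP-like match at -182 from the start, and that of Saa3 an ISRE-like match at -125 and a C/EBP-like match at -99.

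C3 (ENSMUSG00000024164, chr17:57510964-57535155, minus strand, GRCm39) encodes the central complement component, whose cleavage products coat microbes. Its window held 4 kB-like matches, of which the first 2 overlap each other, and a C/EBP-like match at -45.
C3 upstream stretch, chr17:57228137-57228386, minus strand: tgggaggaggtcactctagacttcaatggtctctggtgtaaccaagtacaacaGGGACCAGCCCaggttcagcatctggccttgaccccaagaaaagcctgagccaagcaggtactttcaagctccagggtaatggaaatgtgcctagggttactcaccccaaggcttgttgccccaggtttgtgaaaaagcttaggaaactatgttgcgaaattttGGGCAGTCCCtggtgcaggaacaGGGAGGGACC

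C3 was at 3.49, 1.85, 1.97 and 1.20 CPM with water and at 0.375, 2.01, 0 and 2.02 CPM with zinc. Zinc replicates 2 and 4 were above 3 of the 4 water libraries, and zinc replicates 1 and 3 were below them all. With no count, zinc replicate 3 was at least 9.54-fold lower than the median of the other zinc libraries, computed against the limit of 3 counts in that library. The means were 2.13 ± 0.969 and 1.10 ± 1.06 CPM (SD, n = 4 each), and 1.47 ± 0.945 CPM for zinc without replicate 3 (SD, n = 3). The log2 fold change was -0.94 (SE 0.786, interval -2.68 to 0.80, edgeR adjusted p = 0.622), and -0.51 (interval -1.62 to 0.61, adjusted p = 0.824) without zinc replicate 3. It rests on 170 counts in all.

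Pigr encodes the polymeric immunoglobulin receptor, which carries dimeric IgA from the tissue through epithelial cells into the lumen. The gene (ENSMUSG00000026417) is at chr1:130754397-130779986 on the plus strand (GRCm39).
Pigr upstream stretch, chr1:130826434-130826683, plus strand: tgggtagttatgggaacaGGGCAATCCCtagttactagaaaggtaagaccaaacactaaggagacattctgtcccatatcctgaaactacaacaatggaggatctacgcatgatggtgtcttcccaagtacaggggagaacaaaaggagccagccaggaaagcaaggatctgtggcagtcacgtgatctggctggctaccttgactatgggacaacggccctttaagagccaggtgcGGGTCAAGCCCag

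The Pigr window held kB-like matches at -232, -13 and -12 from the start, the last 2 overlapping, and a GAS-like match 40 bases after the start, outside the printed stretch. Pigr was at 2870, 2420, 1970 and 2250 CPM with water and at 1810, 2000, 876 and 2780 CPM with zinc. The groups overlapped, with zinc replicate 4 second only to Milli-Q water replicate 1. The means were 2370 ± 379 and 1870 ± 783 CPM (SD, n = 4 each), with a log2 fold change of -0.35 (SE 0.302, interval -1.02 to 0.32, edgeR adjusted p = 0.633). Without zinc replicate 3, where the zinc mean was 2200 ± 514 CPM (SD, n = 3), it was -0.11 (interval -0.51 to 0.29, adjusted p = 0.90). Pigr was the tested member closest to the others in zinc replicate 3: the median of the other zinc libraries was 2.28 times its level there (2.24 to 2.32). Gm15848, a long non-coding RNA on the other strand within Pigr, held 84 counts against 220812 for Pigr.

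Ido1 (ENSMUSG00000031551, chr8:25074150-25087025, minus strand, GRCm39) encodes indoleamine 2,3-dioxygenase, the interferon-inducible enzyme that opens the kynurenine route of tryptophan breakdown. It has no entry in the promoter table. Ido1 was the steadiest tested member: it was at 7.59, 6.73, 6.65 and 7.04 CPM with water and at 6.93, 6.67 and 8.79 CPM in zinc replicates 1, 2 and 4. Over these 7 libraries the highest level was 1.32 times the lowest, below the median ratio of 1.53 over genes. In zinc replicate 3 a single count was left, or 0.0702 CPM (0.00178 to 0.391, exact 95% Poisson interval).

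Mean Ido1 was 7.00 ± 0.427 CPM in the water group, 5.62 ± 3.82 CPM in the zinc group (SD, n = 4 each), and 7.46 ± 1.16 CPM without zinc replicate 3 (SD, n = 3). A log2 fold change of -0.33 (SE 0.676, interval -1.82 to 1.17, edgeR adjusted p = 0.853) turned to 0.09 (interval -0.30 to 0.49, adjusted p = 0.907) without that library. The Ido1 direction therefore rests on zinc replicate 3. The interval without it leaves room for a change of up to about 0.49 on the log2 scale.

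Il18 (ENSMUSG00000039217, chr9:50466081-50493633, plus strand, GRCm39) encodes interleukin-18, a cytokine that epithelial cells are known to hold as an inactive precursor. It was all but undetected, with 19 counts over the 8 libraries. The level was 0, 0, 0 and 0.16 CPM with water and 0.0937, 0.0717, 0.702 and 0.403 CPM with zinc. Unlike the tested members, Il18 was highest in zinc replicate 3, which held 10 of the 19 counts. The exact 95% Poisson interval there, 0.337 to 1.29 CPM, includes the 0.403 CPM of zinc replicate 4. Which library was highest is thus not set by these counts. The Il18 promoter window held none of the 4 patterns. Bco2 and Tex12 overlap Il18 on the other strand, with 26 and 0 counts.

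Of the 8 members with a promoter window, 4 held a kB-like match (Lcn2, C3, Pigr and Saa1), as did 50.8% of the 32851 windows in the table. A C/EBP-like match was present in 4 (Lcn2, C3, Saa1 and Saa3), against 10.8% of windows. An ISRE-like match was found in Saa3 alone, against 3.44%, and a GAS-like match in Pigr alone, against 8.3%. These are counts of letters and not of bound sites.

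Against the whole transcriptome, 0 of the 7 tested members passed an adjusted p of 0.05 with edgeR, and 0% of all 10707 tested genes did. The number of members with an unadjusted p under 0.05 was also 0, where 3.78% of all genes had such a p and were lower with zinc. Across all genes 1092 had an unadjusted p under 0.05 and the smallest adjusted p was 0.485. DESeq2 called 4 genes and limma-voom 0, with 1286 and 1324 genes at an unadjusted p under 0.05. Without zinc replicate 3 edgeR again called 0 members and 0% of 10755 genes, with 867 genes at an unadjusted p under 0.05. Then 3 of the 7 members, Lcn2, Nos2 and Duoxa2, were lower with zinc at an unadjusted p under 0.05, against 3.72% of genes.

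The log2 fold change was below 0 for 7 of the 7 tested members, against 49.2% of all genes, and for 6 of 7 without zinc replicate 3, against 49.4%. The median over the 7 was -0.94, where that of all genes was 0.01, and -0.51 without zinc replicate 3, where that of all genes was 0.00. Groups that did not overlap were found for 0 of 7 members, while 3.12% of genes did not overlap and were lower with zinc. All 4 zinc libraries were below the water median for 3 of 7 members (Lcn2, Nos2 and Duoxa2), against 16.0% of genes. The members were chosen for their known function with earlier results of these data in view, and several share regulators, so these counts describe the list and are not independent tests of it.

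**Figure D3:**
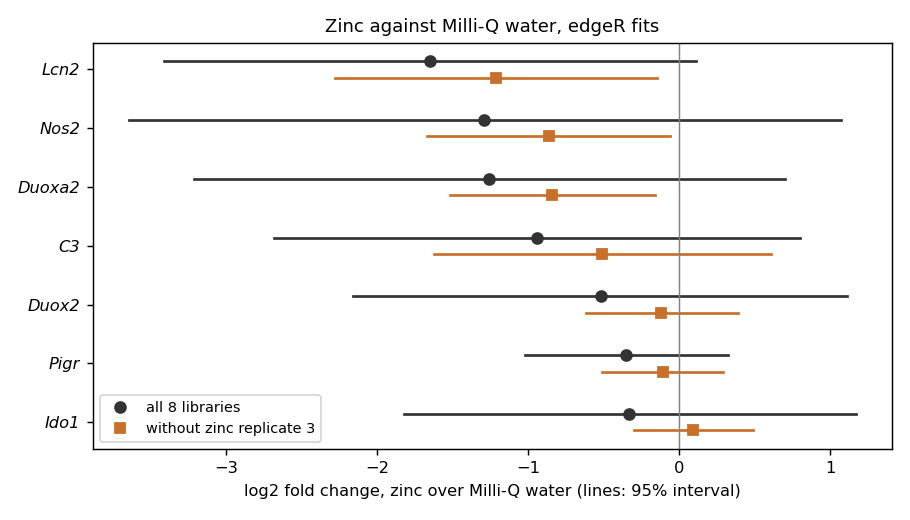
Log2 fold change, zinc over Milli-Q water, of the 7 tested genes from the edgeR fit to all 8 libraries (black circles) and without zinc replicate 3 (orange squares), with lines for the 95% interval. All 7 black intervals include 0, and without zinc replicate 3 those of Lcn2 (-2.28 to -0.15), Nos2 (-1.67 to -0.06) and Duoxa2 (-1.52 to -0.16) do not, before any adjustment for the number of genes.

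The pattern over libraries was shared among most members. Zinc replicate 3 was the lowest of the 8 libraries for 7 of the 7 tested members, against 30.0% of genes, and for 5 of them (Lcn2, Nos2, Duox2, Duoxa2 and Ido1) it was more than 8 times below the lowest of the other 7, against 0.906% of genes. A drop of this depth was not particular to the members. In the related lists given below, it was found for 14 of 23 tested TNF and NF-kB response genes. The IL-17 and IL-22 list had 6 of 22, the interferon-stimulated list 3 of 21 and the complement list 0 of 6. Milli-Q water replicate 1 was the highest library for 5 of 7 (Lcn2, Nos2, Duox2, Pigr and C3), against 8.65% of genes. Duoxa2 was highest in Milli-Q water replicate 3 and Ido1 in zinc replicate 4. The spread between mice drinking the same water was thus large for several members: in the water group Lcn2 ran from 4.88 to 24.1 CPM and Nos2 from 256 to 892 CPM.

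The other 3 zinc libraries also kept an order. Zinc replicate 1 was the lowest of the 7 libraries other than zinc replicate 3 for 6 of 7 tested members, Ido1 being the exception, against 18.4% of genes. The order replicate 1, then 2, then 4 from low to high held for 6 of 7, again with Ido1 as the exception, against 23.4% of genes. For Mt1 the order of these 3 libraries was the opposite, from 254 through 107 to 45.0 CPM. The opposite order does not extend to zinc replicate 3, which was lowest both for Mt1, at 29.5 CPM, and for the 7 tested members. The share of genes with the opposite order was not computed. These orders were noticed after the values were seen, and with 3 libraries they are given as a description only.

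**Figure D4:**
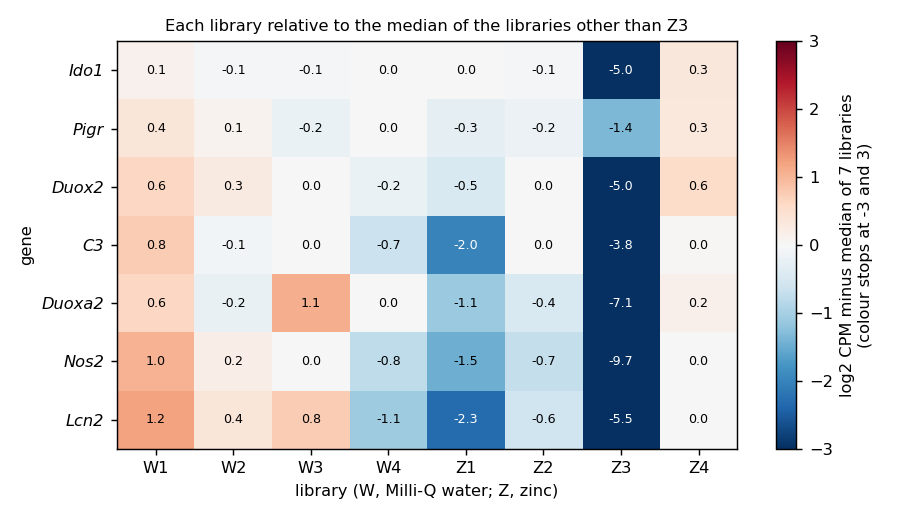
Log2 CPM of the 7 tested genes (rows) in each library (columns; W, Milli-Q water; Z, zinc) minus the median of the 7 libraries other than Z3, with the colour scale stopping at -3 and 3. Z3 is lowest for every gene shown, reaching -9.74 for Nos2, and outside Z3 the values for Lcn2 run from -2.3 in Z1 to 1.21 in W1.

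The mean centred log2 CPM of the 7 tested members was 1.42, 0.82, 0.97 and 0.36 in the water libraries and -0.35, 0.46, -4.62 and 0.94 in the zinc libraries. Among 7655 other genes with at least 5 CPM, the profiles nearest to this mean over the 8 libraries were those of Rel, Ptk6 and Sema6b, with root mean square differences of 0.209, 0.215 and 0.271 log2 units. The mean lies furthest from 0 in zinc replicate 3, so nearness to it depends mostly on a low level in that library. There Lcn2, Ido1 and C3 rest on 1, 1 and 0 counts. Rel is also on the TNF and NF-kB response list. Rel, an NF-kB subunit, was at 43.8 to 88.1 CPM with water, 35.7 to 76.0 CPM in the other zinc libraries and 1.82 CPM in zinc replicate 3. Ptk6, an epithelial tyrosine kinase, was at 10.2 to 23.5, 6.0 to 20.6 and 0.211 CPM. Sema6b, a transmembrane semaphorin, was at 33.3 to 41.8, 13.9 to 31.0 and 0.842 CPM. Its log2 fold change was -1.11 (SE 0.637, edgeR adjusted p = 0.519), or -0.70 (SE 0.213, adjusted p = 0.50) without zinc replicate 3.

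Genes that work beside the members were read from lists chosen by function, and 0 genes of any list passed the test in either direction. Of 11 tested reactive oxygen and nitric oxide genes, 10 were lower and 1 higher with zinc, with a median log2 fold change of -0.39, or -0.14 without zinc replicate 3. Rac1, a small GTPase of the oxidase complexes, was at 185 to 214 CPM with water, 153 to 213 in the other zinc libraries and 101 in zinc replicate 3. Noxo1, the organizer of NADPH oxidase 1, was at 99.5 to 115, 79.0 to 111 and 39.8 CPM. Both were lowest in zinc replicate 3, as were 9 of the 11, but by far less than Duox2 and Nos2.

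The acute phase and iron-binding list was sparse, with 5 of 23 genes tested. These 5 were lower with zinc, with a median of -1.15, or -0.73 without zinc replicate 3. Lrg1, a secreted glycoprotein of the acute phase, was at 33.1 to 67.9 CPM with water, 12.2 to 52.6 CPM in the other zinc libraries and 0 in zinc replicate 3. Hamp, which encodes the iron hormone hepcidin, was at 3.16 to 19.8, 3.01 to 5.15 and 0 CPM. Their log2 fold changes of -1.15 (SE 0.883) and -1.73 (SE 0.847) had edgeR adjusted p values of 0.598 and 0.491. They were -0.73 and -1.28 without zinc replicate 3, with adjusted p values of 0.666 and 0.602.

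Most other complement genes, unlike C3, were not lowest in zinc replicate 3. Of 6 tested, 5 were lower and 1 higher with zinc (median -0.19 with and without zinc replicate 3), and 1 was lowest in that library. Cfi, the protease that inactivates cleaved C3, was at 51.8 CPM in zinc replicate 3, within the 33.0 to 101 CPM of the water libraries. Cr1l, a membrane regulator of complement, was at 64.6 to 81.2 CPM with water, 46.2 to 69.0 in the other zinc libraries and 29.9 in zinc replicate 3 (log2 fold change -0.54, SE 0.227, edgeR adjusted p = 0.485, and -0.34 without zinc replicate 3, adjusted p = 0.595).

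Around Ido1, 7 of 19 genes of tryptophan use were tested, 4 lower and 3 higher with zinc, with a median of -0.05, or 0.09 without zinc replicate 3. Wars1, the interferon-inducible tryptophanyl-tRNA synthetase, was steady outside zinc replicate 3, as Ido1 was, but was less far below the others in that library. It was at 1110 to 1190 CPM with water, 1140 to 1300 CPM in the other zinc libraries and 304 CPM in zinc replicate 3. Slc3a2, the heavy chain of an amino acid transporter, was at 210 to 339, 210 to 424 and 194 CPM. Of 12 tested genes of the IL-18 and inflammasome list, 9 were lower and 3 higher (median -0.18, or -0.02 without zinc replicate 3). Nlrc4, an inflammasome sensor, was at 96.8 to 113, 79.6 to 96.2 and 56.1 CPM, and Casp4, an inflammatory caspase, at 86.6 to 129, 85.2 to 90.5 and 4.63 CPM. Both genes were readily detected in the water libraries, unlike Il18.

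Of the IgA list, 3 of 12 genes were tested, 1 lower and 2 higher with zinc (median 0.08, or 0.13 without zinc replicate 3). Ccl28, a chemokine for IgA plasma cells, was at 17.5 to 28.2 CPM with water, 19.4 to 27.7 in the other zinc libraries and 11 in zinc replicate 3. Sdc1, a syndecan of epithelial and plasma cells, was at 15 to 21.9, 16.4 to 25.2 and 18.0 CPM.

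Lists of the signals upstream of the members, with their other targets, were also counted. Of 22 tested genes of the IL-17, IL-22 and NF-kB zeta arm, 18 were lower and 4 higher with zinc (median -0.57, or -0.34 without zinc replicate 3), and 16 were lowest in zinc replicate 3. Reg3g, a bactericidal lectin, was at 5500 to 7700 CPM with water, 2000 to 6320 in the other zinc libraries and 662 in zinc replicate 3 (log2 fold change -1.07, SE 0.517, edgeR adjusted p = 0.491, and -0.72 without zinc replicate 3, adjusted p = 0.595). Tifa, an adaptor in the sensing of bacterial sugars, was at 1320 to 1490, 781 to 1440 and 75.0 CPM.

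Of 23 tested TNF and NF-kB response genes, 22 were lower and 1 higher (median -0.42, or -0.09 without zinc replicate 3), and 21 were lowest in zinc replicate 3. Nfkbia, the inhibitor that NF-kB induces in its own feedback loop, was at 467 to 534 CPM with water, 434 to 507 in the other zinc libraries and 28.6 in zinc replicate 3, and Nfkb2, an NF-kB subunit, at 222 to 260, 233 to 271 and 25.3 CPM. Outside zinc replicate 3 Nfkbia and Nfkb2 varied far less between libraries than Lcn2 or Nos2. Of 21 tested interferon-stimulated genes, 21 were lower with zinc (median -0.73, or -0.40 without zinc replicate 3), and 20 were lowest in zinc replicate 3. Gbp2, a guanylate-binding protein, was at 144 to 162, 107 to 142 and 0.702 CPM, and Irgm1, an immunity-related GTPase, at 79.8 to 96.8, 65.2 to 91.7 and 24.9 CPM. Without zinc replicate 3, 14 of 23 TNF and NF-kB genes and 22 of 23 interferon-stimulated genes were lower, against 49.4% of genes. For the other lists it was 9 of 11 (reactive oxygen), 5 of 5 (acute phase), 6 of 6 (complement) and 2 of 7 (tryptophan). It was 7 of 13 for the IL-18 list, 0 of 3 for IgA and 16 of 22 for IL-17 and IL-22.

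**Figure D5:**
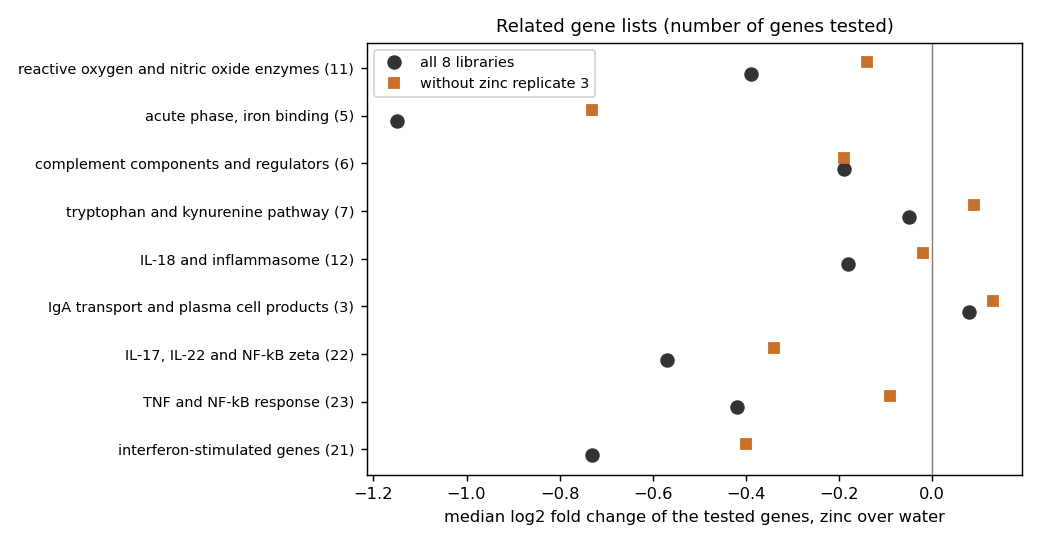
Median log2 fold change, zinc over Milli-Q water, of the tested genes of each related list (number of genes in brackets) with all 8 libraries (black circles) and without zinc replicate 3 (orange squares). With all 8 libraries the medians run from -1.15 for the acute phase list to 0.08 for the IgA list, and without zinc replicate 3 that of the TNF and NF-kB list is -0.09.

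PC markers were mixed in zinc replicate 3. Lyz1, the PC lysozyme, was at 142000 CPM there, within the 135000 to 214000 CPM of the water libraries, and Defa24, an alpha-defensin, at 166000 CPM, within 141000 to 281000 CPM. Of the 12 PC markers, 8 lay within the range of the other 7 libraries. Pla2g2a, a bactericidal phospholipase, was lowest in zinc replicate 3 (589 CPM against 1020 to 1340), as was the transcription factor gene Sox9 (91.9 against 176 to 238). Kit, a receptor tyrosine kinase gene, was highest there (161 CPM against 27.7 to 57.8), as was the surface protein gene Cd24a (1880 against 998 to 1230). The log2 fold changes of Lyz1 and Defa24 were -0.20 (SE 0.225, edgeR adjusted p = 0.713) and -0.29 (SE 0.267, adjusted p = 0.645), or -0.18 (adjusted p = 0.878) and -0.30 (adjusted p = 0.818) without zinc replicate 3.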

How the data were processed

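Each of the 8 libraries is labelled as PCs of the small intestine, purified by FACS, with a strand-specific poly(A) kit. The authors deposited raw read counts per Ensembl gene. The submitters' processing notes name FastQC 0.12.0, STAR 2.7.10a, DESeq2 and mm39. The counter, the annotation release, the use of strand and the rule for reads with several matches are not given in the sources used here. Identifiers were matched to GENCODE M39 on GRCm39 (54749 matched and 665 not, holding 0.00443% of counts).

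Zinc was compared with water in edgeR 4.0.16 under R 4.3.3 (quasi-likelihood test), using TMM factors, the default expression filter (10707 genes with 99.89% of counts) and Benjamini-Hochberg adjustment over all genes tested at 0.05. The design text gives 4 mice in each group, so p-values measure the spread between these mice. No 2 libraries agreed within sampling noise. Log2 CPM used a prior count of 2. The edgeR fit was tested on simulated counts, in which no library stood apart as zinc replicate 3 does. The pattern search was tested on a made sequence for the kB-like pattern only. Alternatives were other scalings, no filter or a stricter filter (1 CPM in 4 libraries and 100 counts), DESeq2 1.42.0, voom with sample weights in limma 3.58.1, a replicate block, libraries left out, the union of exons as gene length, and only the 250 bases before the start. Promoter windows came from RefSeq (GRCm38.p6).

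The members and lists were chosen with earlier results of these data known. Named were the 10 members, the 2 tested genes of highest mean CPM in each list with any called gene, the 3 genes of nearest profile with a mean of at least 5 CPM, and Lyz1, Defa24 and Mt1. Other genes were named after their values were seen, among them Cd74, Lyz2, Ptprc, Fcgbp, Lgr5, Muc2, Olfm4, Pla2g2a, Sox9, Kit and Cd24a. Cd68, Csf1r, Axin2, Rnf43 and Tnfrsf19 were also named in this way. The rest were named because they overlap a member or share its sequence, or belong to a marker list at 0 counts.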

Additional observations from a re-analysis of the deposited data

Results flagged for a closer look

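In groups of 4 libraries, 38 sets of values were searched for a library that stood apart. Its gap to the nearest other had to exceed Dixon's 95% critical value as a share of the group's range. Such a library was found 4 times. Chance would give about 1 in 20, or 1.9, but zinc replicate 3 was known to stand apart before the search. The number found is therefore a description and no test against chance. The Nos2 log2 CPM in zinc replicate 3 was -0.98, while the other zinc libraries had 7.29 to 8.76 (gap 0.849 of the range). The Ido1 log2 CPM in zinc replicate 3 was -2.15, against 2.77 to 3.16 (gap 0.927). For TNF and NF-kB response genes, the mean log2 CPM in zinc replicate 3 was 1.36, against 4.85 to 5.08 (gap 0.939). The Il18 log2 CPM in Milli-Q water replicate 4 was -1.67, against -2.69 in each other water library, where Il18 had 0 counts, and it rests on 2 counts. The part of the enterocyte markers, which were also highest in zinc replicate 3, was not tested.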

How the results depend on the processing

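The count of genes called was 0 with edgeR under every alternative run and 4 with the DESeq2 Wald test, and 0 members were called by any of them. The cause was not tested. Ido1 changed direction, to 0.09 without zinc replicate 3 and to 0.06 with the replicate block and that library left out. The members whose groups did not overlap numbered 0 to 1 with each library left out in turn: Lcn2 without Milli-Q water replicate 4 and Duoxa2 without zinc replicate 4. In both cases the library left out was one that lay inside the range of the other group. The share of all genes was not computed for these omissions, so the counts are a description only. With each library left out, the log2 fold change ran from -2.35 to -1.21 for Lcn2, -1.90 to -0.86 for Nos2, -0.99 to -0.12 for Duox2, -1.79 to -0.84 for Duoxa2, -0.61 to -0.11 for Pigr, -0.64 to 0.09 for Ido1 and -1.42 to -0.51 for C3. The median over the 7 tested members ran from -1.40 to -0.51. The smallest adjusted p of any member under any alternative was 0.222, for Lcn2. The replicate numbers did not pair the samples: the correlations of deviations within a number lay between -0.027 and 0.027. With the replicate block the log2 fold change was -2.01 for Lcn2, -2.07 for Nos2 and -1.64 for Duoxa2, with 0 genes called. The median of the IL-18 list was 0.06 with no filter and -0.02 without zinc replicate 3. The GAS-like match of Pigr lies after the start, so 0 members held one in the 250 bases before it. Depth limits Saa1, Saa3 and Il18, with 25, 68 and 19 counts, to a statement of counts.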
